A study of Arabidopsis thaliana with 2 samples.

Results

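The transcripts described here are those of 34 Arabidopsis enzyme genes, 23 cytochrome P450 monooxygenases and 11 tau-class glutathione transferases, measured in seedlings with components of a synthetic sensor of oxygen. They were chosen by name from 13333 loci that a probe set of a single gene represented. A P450 gene has an annotated symbol that starts with CYP, a family number and a letter, and a tau glutathione transferase gene has a symbol that starts with GSTU and a number. Each of the 34 loci had 1 probe set. The RefSeq gene table lists 236 genes with such a P450 symbol and 27 with a GSTU symbol, so the genes reported are a part of each family. Of the 23 P450 genes, 19 belong to the CYP71B subfamily, and the remaining 4 are the single measured members of families 51, 78, 79 and 84.

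RNA came from Col-0 seedlings grown for 7 days on medium with 1% sucrose and left untreated, and it was hybridised to 2 Affymetrix arrays, 1 per genotype. The double expressor expresses the proteins labelled AD-HIFCOOD and GBD-pVHL, and the triple expressor expresses the same pair plus PHD3. Both genotypes therefore carry the HIF and pVHL parts, named for an animal transcription factor of low-oxygen responses and for the protein that recognises its hydroxylated form, and they differ in PHD3, an oxygen-dependent prolyl hydroxylase. Plants were selected by PCR genotyping one by one. The promoters of the transgenes, the number of lines and the number of seedlings per array are not stated in the labels.

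Cytochrome P450 enzymes insert an oxygen atom from molecular oxygen into small molecules, with electrons delivered by a reductase. In plants they serve the synthesis and breakdown of hormones, pigments, sterols, wall components and defence compounds, and the CYP71 family is rich in enzymes of specialised metabolism, most of whose CYP71B members in Arabidopsis have no assigned substrate. Tau glutathione transferases are a plant-specific class that joins glutathione to electrophilic compounds, and several are induced by herbicides, oxylipins and oxidative stress. Members of both families often lie side by side on a chromosome as products of tandem duplication.

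Values are RMA levels on the log2 scale, and a difference is the level in the triple expressor minus that in the double. A level of 5.71, the 40th percentile of all values, served as a floor below which a probe set was treated as dim. Since each genotype had 1 array, no replicate spread could be measured and no test was made, so the differences describe these 2 arrays. As a guide to technical disagreement, the differences of the brightest and next probe sets of a locus varied with an SD of 0.17 per probe set over the 60 loci with both above the floor, which leaves out variation between plants, RNA samples and labelling. Levels of different probe sets were not set against each other.

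No P450 or tau glutathione transferase gene was 1.5-fold apart between the genotypes. Of the 34 genes, 16 had a level at or above the floor on at least 1 array, 8 in each class, and 0 of these 16 passed 1.5-fold, whereas among all 7428 loci above the floor 1.52% were higher by that fold and 0.512% lower, 2.03% in all. With only 16 genes above the floor, a count of 0 lies near that background. In each class 0 genes passed that fold without a floor as well, a setting at which the share of all loci was not counted. The differences of the 34 genes ran from -0.53 for CYP71B34 to 0.48 for CYP84A4.

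**Figure D1:**
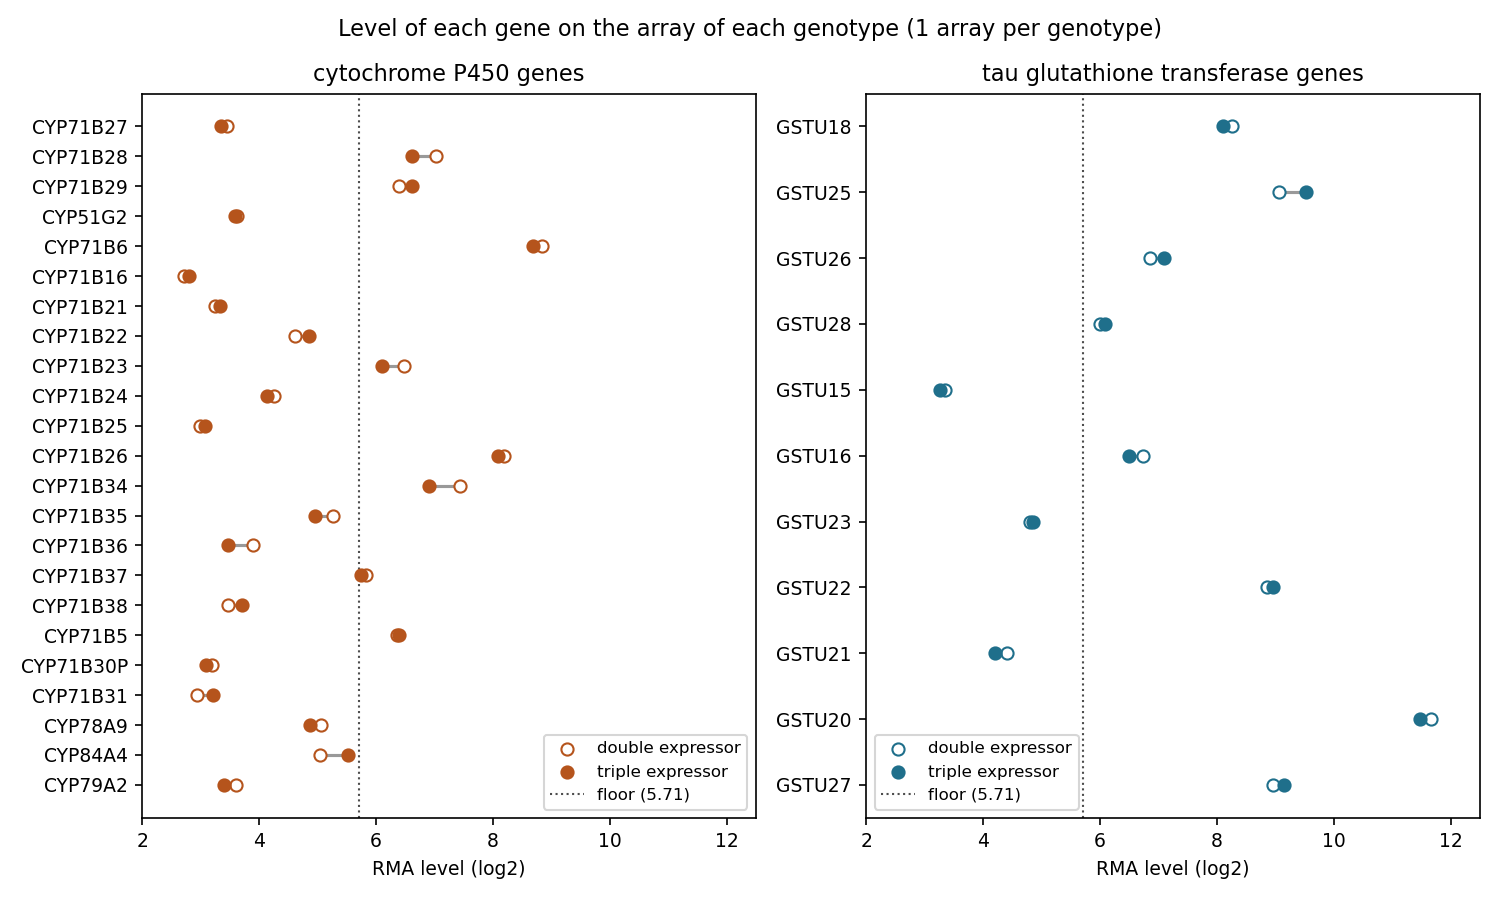
RMA level (log2, horizontal axis) of each gene in the double expressor (open circles) and the triple expressor (filled circles), for P450 genes on the left and tau glutathione transferase genes on the right, in chromosome order. The dotted line is the floor of 5.71. The open and filled circles of each gene lie close together, with the widest gaps at CYP71B34, CYP84A4 and GSTU25.

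Of the 23 P450 genes, 14 were lower and 9 higher in the triple expressor. Their median difference was -0.09, or -0.0277 with 32 added to the unlogged values. Over all 13333 loci 50.2% were lower and 47.9% higher, and the median was about 0.00. With 23 genes, of which 15 were dim, the split of 14 and 9 lies near that background. All of the 8 P450 genes above the floor were CYP71B genes, and 6 of them were lower and 2 higher, with a median of -0.13. Among all loci above the floor 46.4% were lower, and the median was 0.02. The 15 dim P450 genes were split between 8 lower and 7 higher, with a median of -0.04. In RNA of whole seedlings, fewer cells of a type and less RNA per cell cannot be told apart.

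The largest group of CYP71B genes lies on chromosome 3 between CYP71B16 (AT3G26150) and CYP71B37 (AT3G26330). That stretch holds 24 genes in the RefSeq order, 18 of them with a P450 symbol, and 11 of those were measured. In this group 7 genes were lower and 4 higher, between -0.53 and 0.24, with a median of -0.10. All 4 of its genes above the floor were lower in the triple expressor, beside 46.4% of all loci above the floor. For CYP71B26 and CYP71B37 among these 4, the differences of -0.10 and -0.09 were within the SD between probe sets of 0.17.

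CYP71B34 (AT3G26300) showed the largest difference of the P450 genes, with a level of 7.44 on the double and 6.91 on the triple array. It was 1.45-fold lower, and 2.92% of all loci above the floor were at least as far apart in either direction. CYP71B23 (AT3G26210) went from 6.48 to 6.10, a 1.29-fold lower level, and 9.02% of loci were as far apart. Both differences exceeded the SD between probe sets of a locus.

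The other genes of that stretch above the floor differed less. CYP71B26 (AT3G26290) went from 8.19 to 8.09. CYP71B37, close to the floor, was at 5.83 and 5.74. These differences of -0.10 and -0.09 were smaller than the SD between probe sets.

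Among the dim genes of the stretch, CYP71B36 (AT3G26320) went from 3.89 to 3.46 and CYP71B35 (AT3G26310) from 5.27 to 4.95. CYP71B24 (AT3G26230) went from 4.26 to 4.13. The dim genes CYP71B22 (AT3G26200), at 4.61 and 4.85, CYP71B21 (AT3G26190), at 3.23 and 3.34, CYP71B25 (AT3G26270), at 2.98 and 3.07, and CYP71B16, at 2.72 and 2.79, were instead slightly higher. With 32 added to the unlogged values, which damps the differences of dim probe sets, the difference of CYP71B36 shrank from -0.43 to -0.12.

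By position, 5 neighbouring measured genes at one end of the stretch, from CYP71B26 to CYP71B37, were all lower in the triple expressor, with a median of -0.31 and 3 of them above the floor. They span 6 genes in the RefSeq order. This run was picked out after its values were seen, and over all loci 50.2% were lower. Members of the subfamily are alike in sequence, and whether their probe sets share signal was not tested.

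**Figure D2:**
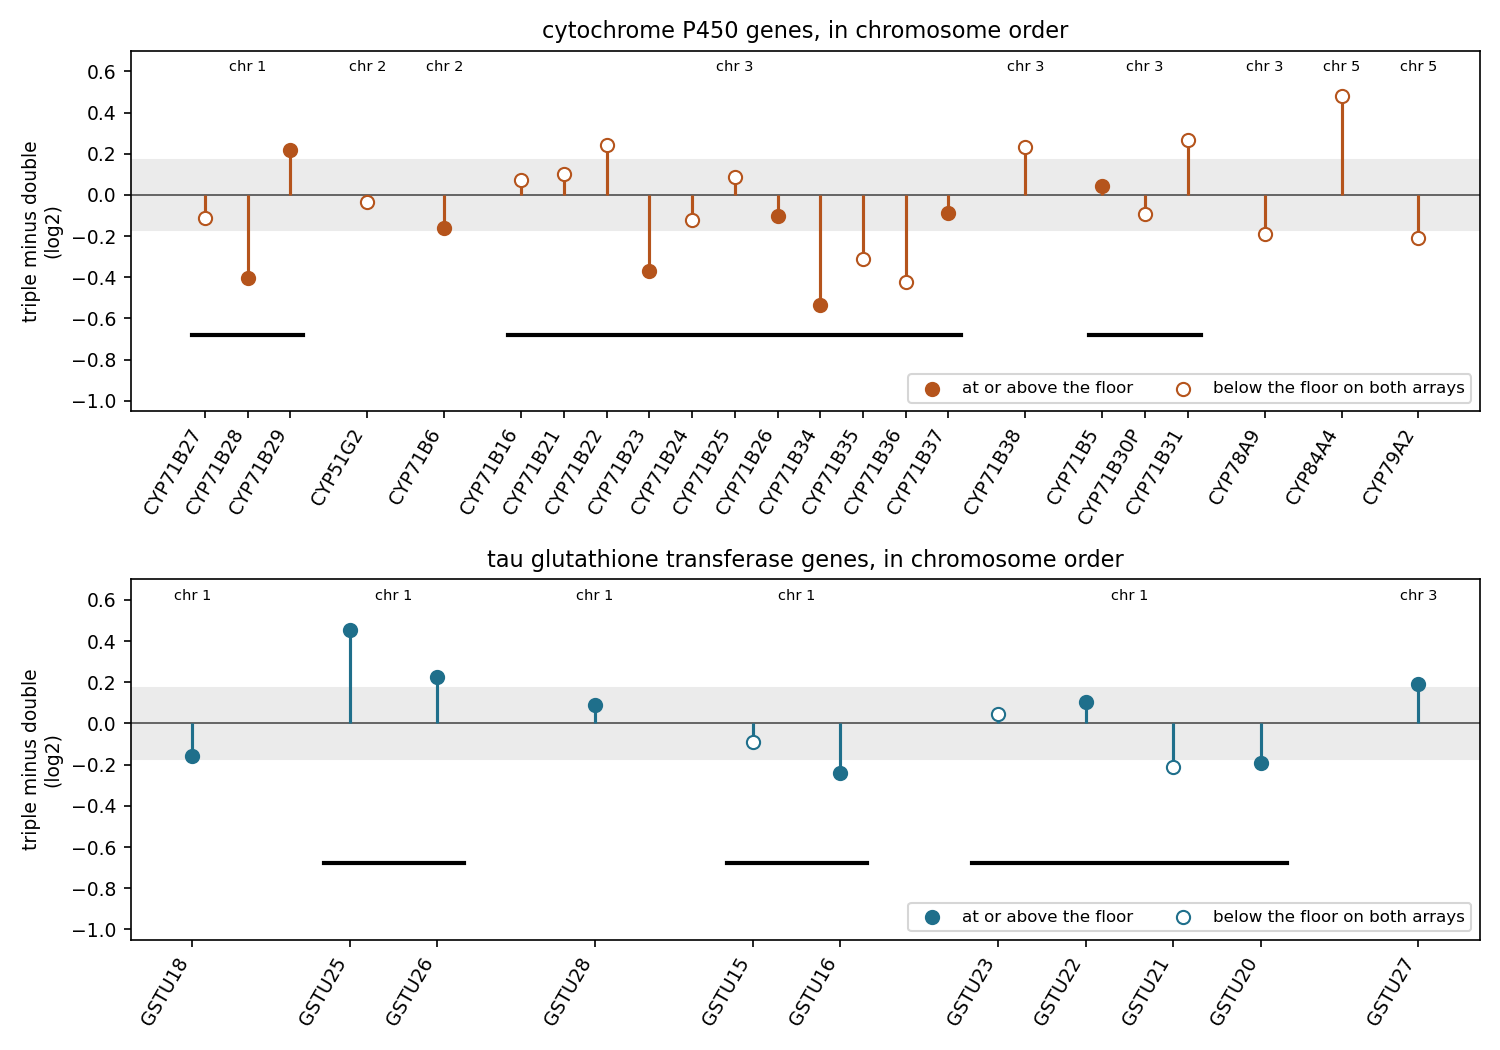
Difference between the triple and the double expressor (log2, vertical axis) for each gene in chromosome order, P450 genes above and tau glutathione transferase genes below. Filled circles are genes at or above the floor, open circles dim genes, black bars join genes of 1 chromosomal stretch and the grey band is 1 SD between probe sets of a locus (0.17). The 5 genes from CYP71B26 to CYP71B37 lie below 0, and GSTU25 and GSTU26 lie above it.

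The smaller CYP71B groups did not share 1 direction. On chromosome 1, CYP71B28 (AT1G13090) was 1.32-fold lower, from 7.02 to 6.61, and its neighbour CYP71B29 (AT1G13100) was 1.16-fold higher, from 6.40 to 6.62. Of all loci above the floor, 7.20% were at least as far apart as CYP71B28 and 27.9% as CYP71B29. The third measured gene there, CYP71B27 (AT1G13070), which the RefSeq table lists as a transcribed pseudogene, was dim, at 3.45 and 3.34. The triple array was thus lower for 1 and higher for 1 of the neighbours above the floor.

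A second group on chromosome 3 holds CYP71B5, CYP71B30P and CYP71B31. CYP71B5 (AT3G53280) went from 6.35 to 6.39, a difference of 0.04. CYP71B31 (AT3G53300), which in Arabidopsis flowers oxidises the scent compound linalool, was dim, at 2.94 and 3.21, and CYP71B30P (AT3G53290) was dim as well, at 3.19 and 3.09. CYP71B5, the only one of the 3 above the floor, thus differed by less than the SD between probe sets.

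The remaining CYP71B genes stand alone. CYP71B6 (AT2G24180), which acts on indole-3-acetonitrile in indolic defence metabolism, lay above the floor and was 1.12-fold lower, from 8.84 to 8.68, a difference within the SD between probe sets. CYP71B38 (AT3G44250) was dim, at 3.47 and 3.70.

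The 4 P450 genes outside CYP71B were dim on both arrays. CYP84A4 (AT5G04330), which takes part in the synthesis of arabidopyrones from phenylpropanoid precursors, went from 5.04 to 5.52, just under the floor, with a difference of 0.48. Among all dim loci 3.78% were at least as far apart, and with 32 added to the unlogged values its difference was 0.26. The other 3 were slightly lower in the triple expressor.

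CYP79A2 (AT5G05260), which makes the aldoxime precursor of benzyl glucosinolate from phenylalanine, was at 3.60 and 3.39. CYP78A9 (AT3G61880), a regulator of fruit and seed size, was at 5.06 and 4.87. CYP51G2 (AT2G17330), a transcribed pseudogene in the RefSeq table and a relative of the sterol 14-demethylase gene, was at 3.62 and 3.58. The differences of these 3 genes were between -0.21 and -0.04.

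The tau glutathione transferase genes went both ways, with 6 higher and 5 lower in the triple expressor and a median of 0.05. Of the 8 above the floor, 5 were higher and 3 lower, with a median of 0.10, beside 52.9% of all loci above the floor that were higher. The range of these 8, from -0.24 to 0.46, overlapped that of the 8 P450 genes above the floor, from -0.53 to 0.22. Whether the classes differ from each other was not tested.

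GSTU25 (AT1G17180), which joins glutathione to the explosive trinitrotoluene and is induced by oxidative stress, had the largest difference of its class. It went from 9.07 to 9.52, a 1.37-fold higher level, and 4.78% of all loci above the floor were at least as far apart. The adjacent gene GSTU26 (AT1G17190) was 1.17-fold higher, from 6.86 to 7.09, a size reached by 26.6% of loci. Both genes of this tandem pair were thus higher on the triple array.

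Other groups of tau genes on chromosome 1 showed smaller differences. GSTU20 (AT1G78370), whose protein binds the jasmonate-conjugating enzyme FIN219 (JAR1), went from 11.66 to 11.47, and GSTU22 (AT1G78340) of the same group was at 8.85 and 8.96. Their dim neighbours GSTU21 (AT1G78360) and GSTU23 (AT1G78320) were at 4.41 and 4.2, and at 4.8 and 4.84. Within this group 2 genes were higher and 2 lower, and the differences ran from -0.21 to 0.10.

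GSTU16 (AT1G59700) had the most negative difference of the class. It was 1.18-fold lower, from 6.74 to 6.5, and its dim neighbour GSTU15 (AT1G59670) was at 3.35 and 3.26. GSTU18 (AT1G10360), in the upper part of chromosome 1, went from 8.26 to 8.10. GSTU28 (AT1G53680) was at 6.0 and 6.09. On chromosome 3, GSTU27 (AT3G43800) was 1.14-fold higher, from 8.95 to 9.15. Apart from GSTU25, every gene of the class lay within 0.25 of no difference.

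At a looser threshold of 1.3-fold, chosen after the values were seen, 2 P450 genes above the floor were lower, CYP71B34 and CYP71B28, and 0 were higher. Over all loci above the floor 2.91% were lower by that fold and 5.74% higher, 8.64% in all. GSTU25 was the only tau glutathione transferase gene above the floor to pass it. By the SD between probe sets, 4 of the 8 P450 genes and 5 of the 8 tau glutathione transferase genes above the floor differed by more, as did 38.9% of all loci above the floor.

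**Figure D3:**
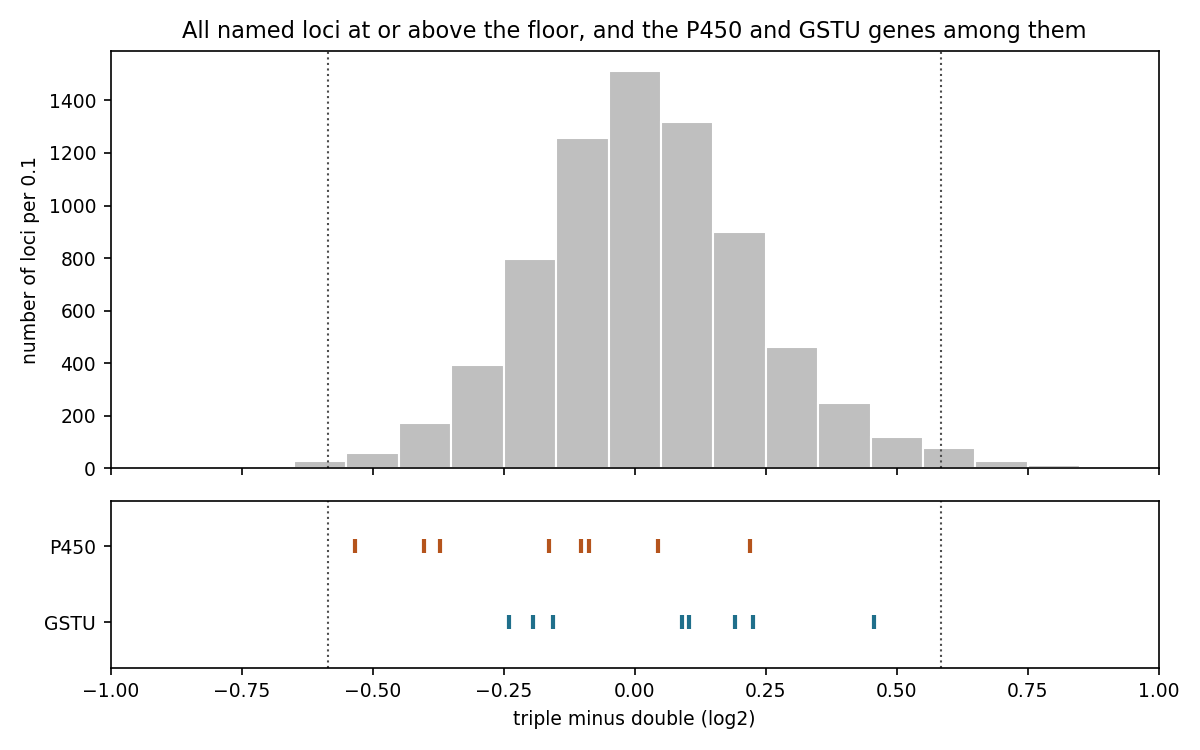
Upper panel, number of named loci at or above the floor per 0.1 of the difference between the triple and the double expressor (log2), with 18 loci beyond the axis. Lower panel, the 8 P450 and 8 tau glutathione transferase genes above the floor on the same axis. Dotted lines mark 1.5-fold, and all 16 genes lie between them.

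Few other genes of the same detoxification route could be read. Of 6 related lists, those of P450 redox partners (8 genes), of P450 genes under other symbols (29 genes) and of ABCC transporters had 0 measured loci and were not analysed here. Of 3 glutathione transferase genes from other classes, 2 were higher and 1 lower. ATGSTF13 (AT3G62760), of the phi class, was 1.75-fold higher, from 5.25 to 6.06, and 0.552% of loci above the floor were at least as far apart. With 32 added to the unlogged values its difference was 0.49 in place of 0.81, which is under 1.5-fold. GSTF4 (AT1G02950), also of the phi class, went from 5.58 to 5.96, and GSTL3 (AT5G02790), of the lambda class, from 10.76 to 10.59. ATGSTF13 and GSTF4 lay under the floor of 5.71 on the double array. They count as above the floor only through the triple array, where they were higher.

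Of 7 genes in the list of glutathione synthesis and recycling, 2 were measured. GR (AT3G54660), the glutathione reductase of chloroplasts and mitochondria, was 1.39-fold lower, from 9.96 to 9.49, and 4.29% of loci above the floor were at least as far apart, while GR1 (AT3G24170), the cytosolic form, was at 9.49 and 9.5. AER (AT5G16970), an alkenal reductase and the only measured gene of 14 in the oxylipin and xenobiotic response list, was 1.42-fold lower, from 7.96 to 7.45, a size reached by 3.46% of loci. Neither GR nor AER was 1.5-fold apart. CYP718 (AT2G42850), a P450 gene whose symbol has no subfamily letter, was dim, at 4.89 and 5.20.

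Markers of seedling organs were read as a check of the tissue. Of 5 green tissue genes 4 were measured, at 11.9 to 13.7 in the double expressor and 12.0 to 13.8 in the triple expressor, with differences from -0.03 to 0.11. Both measured root genes of 4, PYK10 and AT3G01190, were higher, by 0.16 and 0.27. All 3 measured root hair genes of 4 were higher as well, EXPA7 by 0.46, EXPA18 by 0.40 and AT4G26010 by 0.50. Of all loci above the floor, 52.9% were higher, and 4.83%, 7.63% and 3.63% were at least as far apart as these 3 genes. These differences are near the size of the GSTU25 difference, and their part in it was not tested. The 1 measured seed storage gene of 6, PAP85, was dim, at 3.39 and 3.57.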

How the data were processed

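The log2 values of 22810 probe sets were computed by the authors using RMA, of unstated version, according to the submitters' processing notes and as deposited. The log2 scale was read from the range of 2.39 to 14.3. RMA gives the arrays a common intensity distribution, which hides any shift common to most genes. The 64 control probe sets were left out. The platform annotation, which can be old, names 1 gene for 13513 probe sets, several for 503 and leaves 8730 unnamed here. Of the first, 13436 matched RefSeq (TAIR10.1) by gene identifier. 2 probe sets naming several genes include a P450 and were not used. Coordinates are not printed, as the build behind the probe sets is unstated, and protein and promoter sequences were not analysed here.

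Each locus was represented by its brightest probe set. The floor, the folds and the medians are described with the results, and every member is named. Genes lying within 10 other genes of each other in the RefSeq order form a stretch. From other lists up to 4 genes are named by size of difference, and all measured marker genes are covered. The genes and lists were chosen with earlier results of these data known. The depth of an array is not a count, and the number of arrays limits the precision. Counts and medians were tested on simulated data. Python 3.11.15 with numpy 2.4.6, pandas 2.3.3, statsmodels 0.14.6 and matplotlib 3.10.9 was used. Alternatives covered centring, floor, fold, probe set choice, membership and a damped scale.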

Additional observations from a re-analysis of the deposited data

How the results depend on the processing

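No P450 or tau glutathione transferase gene passed 1.5-fold under the alternatives run. These were median or lowess centring, the floor left out or set at the 60th percentile, the damped scale, probe set choice and membership. Since 0 genes passed with the floor left out, the stricter floor could not add any. Nor could the damped scale, which only shrinks differences. CYP71B34 came close, at -0.57 under median and -0.56 under lowess centring, beside 0.585 for 1.5-fold. At 1.3-fold, chosen after the values were seen, 2 P450 genes and 1 tau gene above the floor passed, beside 8.64% of all loci above the floor. Without the floor 4 and 1 passed, and the added P450 genes, CYP71B36 and CYP84A4, were dim. The share of all loci without the floor was not counted, so these counts without the floor have no background to be read against. Over genes above the floor, 2 P450 genes were higher, and the tau median was 0.10 in place of 0.05. Over all 11 tau genes, the median of 0.05 became 0.0131 under median centring and 0.0221 on the damped scale. Above the 60th percentile floor of 7.17 the P450 median was -0.16 with 0 genes higher, the tau median was 0.10 with 3 higher, and 3 CYP71B genes were lower in place of 6, since fewer genes are tested. With 32 added to the unlogged values the P450 median was -0.0277, and 3 of the 34 gene values moved by more than 0.20, the SD between probe sets over all levels: CYP71B31 to 0.06, CYP71B36 to -0.12 and CYP84A4 to 0.26. Differences shifted by -0.03 under median centring and by -0.03 to 0.04 under lowess centring, and the sign turned for CYP51G2, to 0.0052, under lowess centring. Every member had 1 probe set and none was named for cross-hybridisation, so the alternatives on probe sets changed nothing by construction. Choosing members by RefSeq symbol left the medians and counts of both classes unchanged. With a lone array in each group, leaving out a replicate was not possible. No paired analysis was possible because there are no replicates to pair.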
